A study of Arabidopsis thaliana with 20 samples.

Results

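Uncapped RNA ends were set against NAD-captured RNA, gene by gene, in unopened flower buds of the Arabidopsis thaliana mutant dxo1. The 27206 nuclear genes (identifiers on chromosomes 1 to 5) listed in both GMUCT tables and both NAD capture tables were compared, of 28775 genes listed in the capture tables, 28496 of them nuclear. The libraries were 2 of dxo1 GMUCT and 2 of dxo1 NAD capture, of 20 libraries in 10 groups of 2 in the series. Plants of the dxo1 genotype grew in 16 h light and 8 h dark, and buds were taken at about 4 weeks. Both groups are labelled with the same mutation, though the DXO1 values of GMUCT replicate 1, given below, go against that label. Col-0 was not read by GMUCT in the libraries analysed here. Each fold thus compares 2 assays within 1 labelled genotype and says nothing of what the mutation does. For the same mutant, 2 polyA RNA and 2 total RNA libraries were used as a measure of the RNA that each assay may start from.

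Eukaryotic messenger RNA normally begins with a methylguanosine cap. Some RNAs begin with NAD instead, the metabolic cofactor built in at the first position, and enzymes of the DXO/Rai1 family such as DXO1 remove this non-canonical cap. Once a cap is gone or a transcript is cut, for instance by a microRNA-guided Argonaute, the exposed 5′ monophosphate is a substrate for 5′-3′ exonucleases, of which XRN4 is the cytoplasmic one in plants. GMUCT ligates an adapter to such exposed 5′ ends and so counts RNA that is on its way to decay. NAD capture tags and pulls down RNA that carries NAD at its 5′ end. A capture without the tagging enzyme was not analysed here, so background binding is part of the captured values.

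GMUCT gave 30507315 and 19486089 counts over the compared genes, and NAD capture 2370553 and 1255016, so the capture libraries set the precision for genes of low level. Reads not assigned to 1 gene made up as much as 28.3% of GMUCT reads, and 91.9 and 93.0% of capture reads, most of which matched several places (88.6 and 88.8% of capture reads). CPM below are counts divided by the library total multiplied by its TMM factor, on a scale shared by all libraries. These factors were 0.895 and 0.932 in GMUCT and 1.107 and 1.083 in NAD capture, so CPM do not add up to the same total in each library. Each fold is GMUCT over NAD capture on a log2 scale with an approximate SE. Separate plants behind replicate libraries are not recorded in the labels, and p-values therefore cover the spread among these libraries, which may be technical.

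DXO1 (AT4G17620) went against the label in GMUCT replicate 1. It had 1753 and 21.6 CPM in the GMUCT libraries, against 29.0 and 28.7 in NAD capture. The same number 1 stood high in the polyA libraries, at 503 against 19.6 CPM in replicate 2, and in total RNA, at 989 against 18.0. The fitted log2 fold change of 4.94 ± 1.2 (SE, adjusted p = 0.00265, edgeR) rests on that library: without it, the value turned to -0.43 (adjusted p = 0.148). What distinguishes the library labelled dxo1 GMUCT replicate 1 was not tested, and group counts without it are given beside the groups below. RDR6, the RNA-dependent RNA polymerase of small RNA synthesis, had 10.6 and 14.3 CPM in GMUCT and 11.8 and 11.1 in capture (0.11 ± 0.296, adjusted p = 0.769), and XRN4 had 69.4 and 62.5 in GMUCT and 73.7 and 59.7 in capture (-0.03 ± 0.186, adjusted p = 0.899). The groups overlapped for both genes.

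Uncapped ends and captured RNA were distributed over the genes in different ways. Of 19581 genes with enough counts to test, 5771 were higher in GMUCT (29.5%) and 5459 lower (27.9%) at an adjusted p under 0.05 (quasi-likelihood test of edgeR), and 8351 did not pass. These shares are the background for each group count below. The difference was at least 2-fold for 3914 higher (20%) and 3777 lower genes (19.3%), and at least 8-fold for 308 (1.57%) and 386 (1.97%). Both libraries of 1 assay lay above both of the other for 15456 tested genes (78.9%). Of the 57.4% of tested genes that passed in either direction, 11210 genes had such groups. The median log2 fold change over all tested genes was 0.02. Across these genes the log2 CPM of the GMUCT libraries correlated at r = 0.983, those of the capture libraries at 0.945, and the means of both assays at 0.797 (Spearman rho 0.807), a description over genes that are not independent. Without GMUCT replicate 1, 5469 genes were higher and 5110 lower of 17918 tested, and 5210 and 4804 of the genes called with both libraries kept their call. Scaling by library totals alone moves the median of all genes to -0.24 and the split to 4457 higher and 6886 lower, and upper-quartile scaling to 4596 higher and 6747 lower. Of the 7625 genes not tested, 3102 had no count in the 4 libraries. Over all compared genes, 1940 had counts in GMUCT and none in capture, and 340 the opposite.

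**Figure D1:**
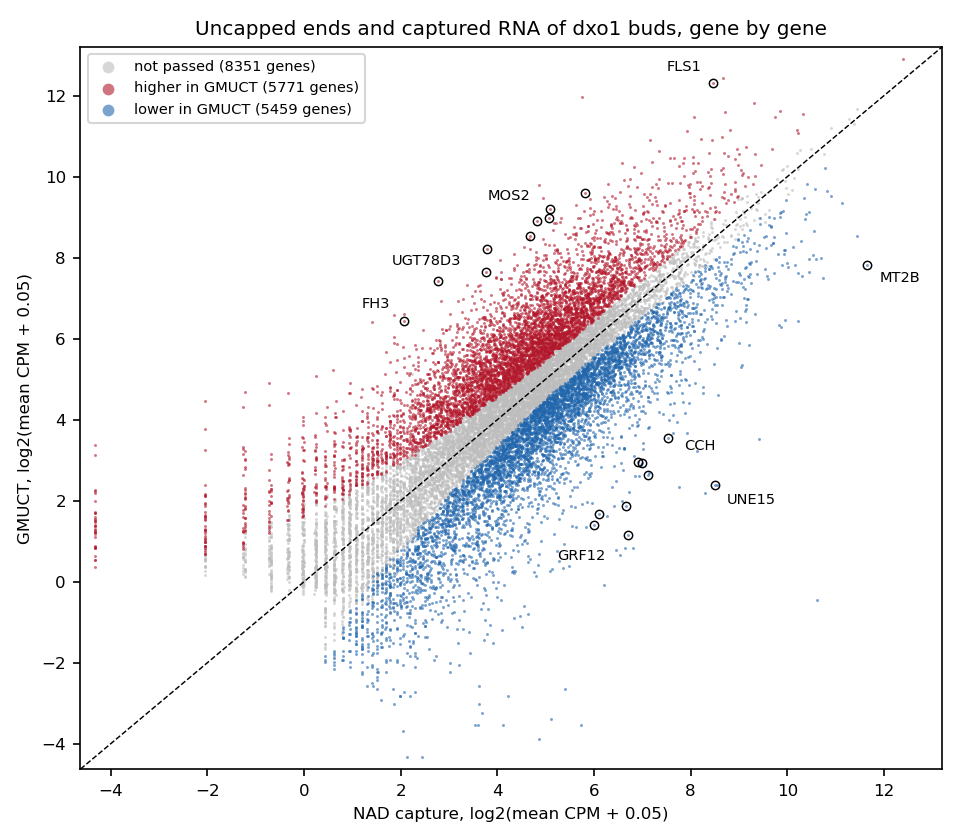
Mean CPM of each of the 19581 tested genes in GMUCT (vertical axis) and NAD capture (horizontal axis), both as log2 of the mean of 2 libraries plus 0.05. Red and blue points passed the test, open circles mark the 20 named genes of largest difference and the dashed line marks equal values. The 5771 higher and 5459 lower genes lie on both sides of the line over the whole range of levels.

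The largest positive fold among well-measured named genes was that of UGT78D3, a flavonoid glycosyltransferase. It had 160 and 182 CPM in the GMUCT libraries, against 6.87 and 6.63 in NAD capture (log2 fold change 4.65 ± 0.252, adjusted p = 1.05e-08). FLS1, the flavonol synthase that makes the substrate of such enzymes, had 3895 and 6243 CPM in GMUCT and 348 and 353 in capture (3.85 ± 0.259, adjusted p = 4.97e-08). Each GMUCT library was more than 10 times above each capture library for both genes. The frataxin gene FH had 292 and 308 CPM in GMUCT and 15.6 and 11.8 in capture (4.41 ± 0.236, adjusted p = 1.05e-08), but its annotated span overlaps another gene. MOS2, an RNA-binding protein with a part in microRNA maturation, had 585 and 601 CPM in GMUCT and 31.3 and 36.8 in capture (4.14 ± 0.223, adjusted p = 1.05e-08). The libraries of each assay lay close together here and far from the other assay. FH3, a formin that nucleates actin, was less even: it had 39.7 and 135 CPM in GMUCT and 4.58 and 3.68 in capture (4.35 ± 0.591, adjusted p = 2.30e-05). The remaining 5 genes of this set differed by log2 fold changes between 3.80 and 4.05. They were the calcium sensor-interacting kinase CIPK7, the nuclear factor Y subunit NF-YB11, the ascorbate peroxidase APX6, the jasmonate-induced cystine lyase CORI3 and the homeodomain-leucine zipper gene HB16.

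At the other end stood UNE15, with 6.70 and 3.64 CPM in GMUCT against 337 and 386 in NAD capture (log2 fold change -6.10 ± 0.284, adjusted p = 4.20e-09). GRF12, a 14-3-3 protein, had 2.13 and 2.26 CPM in GMUCT and 87.4 and 121 in capture (-5.55 ± 0.239, adjusted p = 2.32e-09). The annotated spans of both overlap a neighbour, for which the table used gives no strand. PAB3, a poly(A)-binding protein of reproductive tissue, had 3.63 and 3.58 CPM in GMUCT and 75.6 and 127 in capture (-4.78 ± 0.258, adjusted p = 1.05e-08). Of the metal-handling genes here, the copper chaperone CCH had 11.7 and 11.7 CPM in GMUCT and 182 and 188 in capture (-3.98 ± 0.192, adjusted p = 5.76e-09), and the metallothionein MT2B had 211 and 239 in GMUCT and 3069 and 3323 in capture (-3.83 ± 0.217, adjusted p = 1.43e-08). No library of 1 assay came near the other for these genes. The other 5, at log2 fold changes between -4.64 and -3.97, were the Rab GDP dissociation inhibitor GDI, the multicopper oxidase-like sks11, the reproductive actin ACT12, the latex protein-like MLP328 and the glutamate decarboxylase GAD5. Of these, sks11, ACT12 and GAD5 also overlap another annotated gene, as does NF-YB11 of the genes higher in GMUCT. All 20 genes kept call and direction under each of the 14 alternatives that could be run.

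**Figure D2:**
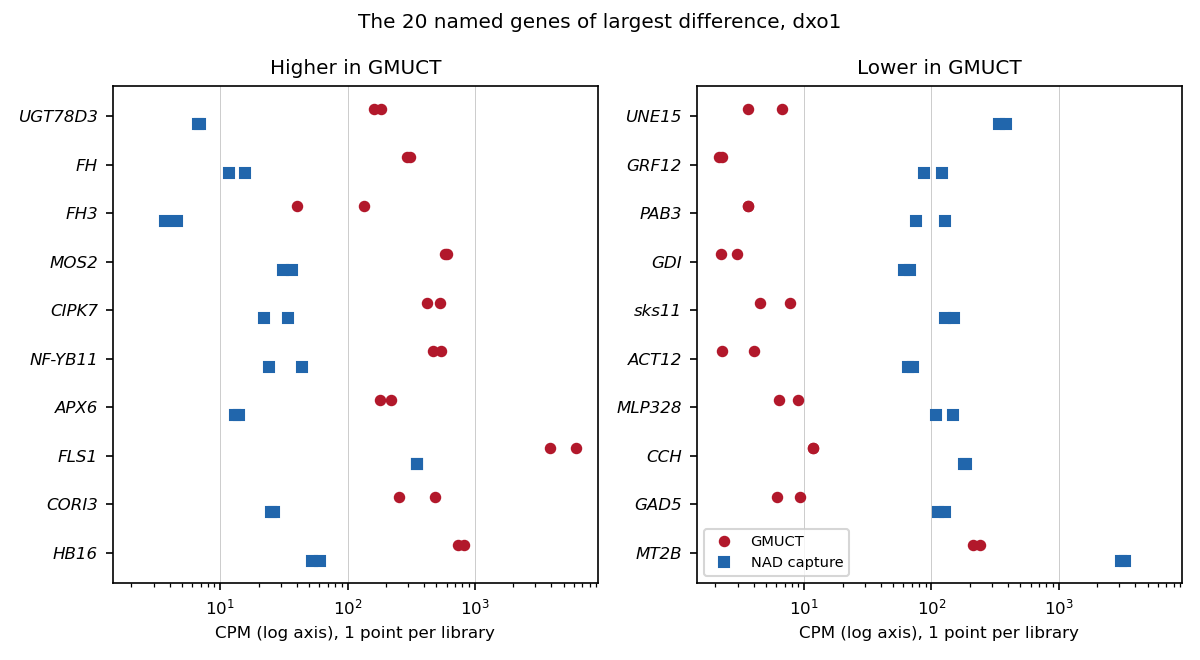
CPM of the 20 named genes of largest difference, on a log axis, with 1 red circle per GMUCT library and 1 blue square per NAD capture library. In the left panel every GMUCT value lies above every capture value, and in the right panel every GMUCT value lies below, FH3 showing the widest gap between libraries of an assay (39.7 and 135 CPM in GMUCT).

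Genes of the pollen lineage and of the tapetum, the anther layer that feeds pollen and makes its wall, were mostly lower in GMUCT. Of 13 tested genes of late pollen and sperm, 9 were lower in GMUCT and 0 higher, with a median log2 fold change of -1.70, against 27.9% lower and a median of 0.02 over all genes. AGP23, a pollen arabinogalactan peptide, had 0.623 and 0.607 CPM in GMUCT and 19.1 and 28.0 in capture (-5.20 ± 0.386, adjusted p = 1.08e-07). VGD1, a pectin methylesterase of the pollen tube, had 26.2 and 16.5 CPM in GMUCT and 213 and 189 in capture (-3.23 ± 0.230, adjusted p = 7.79e-08). The groups were far apart in both cases, while the pollen receptor kinase ANX1 (0.05) and the gamete gene GEX1 (0.28) did not pass. The other 4 genes of this list, among them DUO1, the master regulator of sperm formation, were too low to test.

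Of 26 tested tapetum and pollen wall genes, 20 were lower in GMUCT and 2 higher, with a median of -1.38. SWEET8, the sugar transporter of the tapetum, had 7.25 and 5.79 CPM in GMUCT and 69.1 and 45.0 in capture (-3.15 ± 0.241, adjusted p = 1.33e-07). CYP704B1, a fatty acid hydroxylase of sporopollenin synthesis, had 25.2 and 20.1 CPM in GMUCT and 98.8 and 105 in capture (-2.16 ± 0.190, adjusted p = 4.22e-07). The sporopollenin genes ACOS5 (-2.13) and MS2 (-1.60) were lower as well. DRL1, a reductase of the same pathway, went the other way, with 471 and 393 CPM in GMUCT and 66.4 and 75.9 in capture (2.61 ± 0.208, adjusted p = 1.86e-07). Each such value is a ratio of 2 assays, in which fewer uncapped ends and more captured RNA cannot be told apart. A part of cell composition was not tested, and the labels do not say whether both assays used the same bud collection. Leaving out 1 library at a time, the median of late pollen and sperm genes lay between -2.23 and -1.02. Without GMUCT replicate 1 the counts were 9 lower of 12 for late pollen and 20 lower and 1 higher of 25 for tapetum. The second higher call, of the pollen coat protein GRP17, did not pass then (0.44, adjusted p = 0.0659).

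Nuclear genes of photosynthesis leaned the same way, with exceptions inside each complex. Of 20 tested genes of the light-harvesting antenna, 11 were lower in GMUCT and 2 higher (13 and 2 without GMUCT replicate 1), with a median of -1.09. LHCA2, an antenna protein of photosystem I, had 65.5 and 97.3 CPM in GMUCT and 869 and 960 in capture (-3.49 ± 0.234, adjusted p = 4.79e-08). CAB1, of photosystem II, had 189 and 215 CPM in GMUCT and 1305 and 1479 in capture (-2.79 ± 0.205, adjusted p = 9.87e-08). LHCA1 stood opposite, with 2548 and 2017 CPM in GMUCT and 1138 and 1204 in capture (0.96 ± 0.203, adjusted p = 9.44e-04). The antenna proteins of the same photosystem thus lay on both sides, as did tested genes at large. As shares the antenna counts were 10% higher and 55% lower, against 29.5 and 27.9% of all genes.

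Photosystem subunits divided in the same manner, 17 lower and 9 higher of 33 tested, with a median of -0.58. As shares these were 51.5% lower and 27.3% higher, against 27.9 and 29.5% of all genes, so the higher share was near the background. PSBW, a small subunit of photosystem II, had 104 and 71.2 CPM in GMUCT and 970 and 1004 in capture (-3.50 ± 0.230, adjusted p = 4.15e-08), and PSAL, of photosystem I, had 191 and 169 in GMUCT and 1524 and 1891 in capture (-3.25 ± 0.215, adjusted p = 4.40e-08). PSBY, also of photosystem II, had 1030 and 816 CPM in GMUCT and 247 and 190 in capture (2.07 ± 0.216, adjusted p = 2.01e-06), and PSAF (1.55) was higher too. With library totals alone, 5 subunits were higher and 21 lower, and without GMUCT replicate 1, or without either capture library, 6 were higher. In the Calvin cycle, which fixes carbon, 10 of 15 genes were lower and 1 higher (the same counts without GMUCT replicate 1, and 6 lower and 0 higher without capture replicate 1). The Rubisco small subunit genes RBCS2B (-3.59), RBCS3B (-2.92) and RBCS1B (-1.70) led, but these near-identical copies share reads and their single values are uncertain.

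Genes of the cytoskeleton and ubiquitin, often used as steady references, were mostly lower in GMUCT, with 18 lower and 3 higher of 28 tested (19 and 2 without GMUCT replicate 1) and a median of -0.87. Not every member is such a reference: the lowest value was that of ACT12 (-4.42), the reproductive actin named above. The actins ACT4 (-3.25), ACT8 (-2.19) and ACT7 (-1.36), the tubulins TUA5 (-2.40) and TUB8 (-2.25), and the polyubiquitin UBQ10 (-0.87) were lower as well. TUB6 had 201 and 199 CPM in GMUCT and 92.4 and 108 in capture (1.00 ± 0.186, adjusted p = 3.53e-04) and was higher, with TUA6 (0.72). Without capture replicate 1, TUB6 was the 1 gene of the list still higher. Copies within these families are alike, so reads may be lost or split between them. Of 8 superoxide dismutases, 5 were lower and 1 higher (5 and 0 without GMUCT replicate 1). The iron enzyme FSD1 had 10.04 and 4.36 CPM in GMUCT and 95.0 and 76.6 in capture (-3.56 ± 0.302, adjusted p = 3.23e-07). The cytosolic copper enzyme CSD1 (-2.41) was lower and the plastid one CSD2 higher (0.68, and 0.47 with adjusted p = 0.0661 without GMUCT replicate 1).

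Histone genes lay on both sides, 9 higher and 5 lower of 20 tested (7 and 5 without GMUCT replicate 1, 7 and 9 with library totals alone), with a median of 0.13 that turned to -0.13 under that scaling. As shares the main counts were 45% higher and 25% lower, against 29.5 and 27.9% of all genes. With the assays set against polyA and total RNA, as described below, 4 were positive and 9 negative of 20, with a median of -0.73. The lean to the higher side thus did not hold there. The histone H2B gene HTB2 had 1770 and 1656 CPM in GMUCT and 591 and 538 in capture (1.60 ± 0.195, adjusted p = 8.60e-06), and the H4 gene HIS4 (1.63) was higher as well. The H2A genes RAT5, with 9.75 and 9.98 CPM in GMUCT and 85.1 and 111 in capture (-3.29 ± 0.202, adjusted p = 2.65e-08), HTA2 (-2.92) and HTA10 (-2.65) were lower. Other H2A genes were higher, among them the H2A variant gene GAMMA-H2AX, with 103 and 97.8 CPM in GMUCT and 37.4 and 33.2 in capture (1.49 ± 0.192, adjusted p = 1.37e-05), so the H2A family itself held both directions. Cytosolic ribosomal proteins divided likewise, 9 higher and 12 lower of 30 (8 and 11 without GMUCT replicate 1). Their main counts were 30% higher and 40% lower, the first near the share of all genes. RPS15A had 3056 and 2600 CPM in GMUCT and 248 and 290 in capture (3.40 ± 0.220, adjusted p = 3.71e-08), while P40, the laminin receptor-like protein of the small subunit, had 56.3 and 53.3 in GMUCT and 392 and 357 in capture (-2.77 ± 0.191, adjusted p = 5.89e-08).

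**Figure D3:**
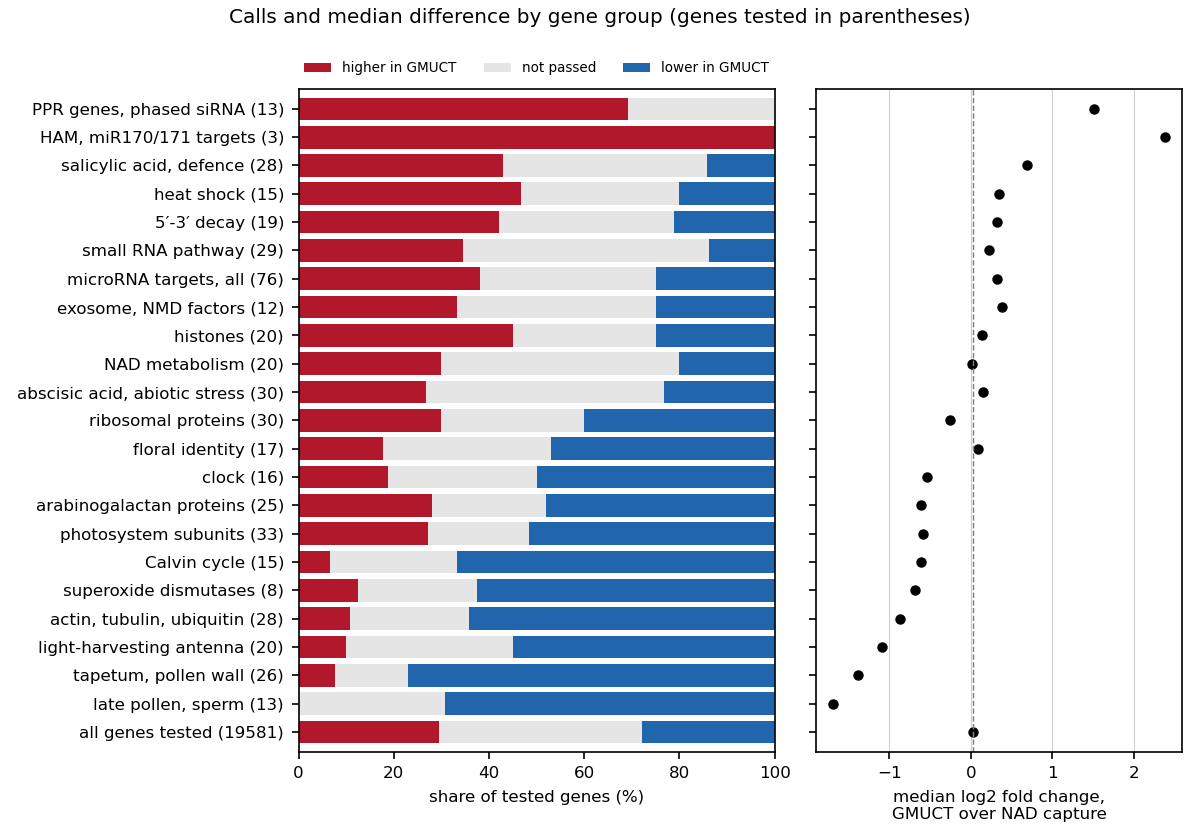
Left, the share of tested genes of each group that was higher in GMUCT (red), not passed (grey) or lower in GMUCT (blue), with the number tested in parentheses. Right, the median log2 fold change, GMUCT over NAD capture, with the median of all genes (0.02) as a dashed line. Groups run in no measured order, and medians range from -1.70 in late pollen and sperm to 2.39 in the 3 HAM genes.

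Small RNA targets came next, since cleavage by an Argonaute leaves the uncapped end that GMUCT reads. Of 76 tested targets of microRNAs, 29 were higher in GMUCT and 19 lower (38.2% higher, against 29.5% of all genes), with a median of 0.33. The counts were 28 and 14 of 71 without GMUCT replicate 1, and 24 and 22 of 76 with library totals alone. With the assays set against polyA and total RNA, as described below, 21 were positive and 18 negative of 75, with a median of 0.10. Members of 1 target family often lay on opposite sides.

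The 3 HAM genes, GRAS regulators of the shoot meristem cut under guidance of the miR171 family, were all higher. HAM1 had 110 and 150 CPM in GMUCT and 17.2 and 22.1 in capture (2.76 ± 0.241, adjusted p = 4.04e-07), HAM2 had 89.1 and 94.0 in GMUCT and 22.5 and 17.0 in capture (2.17 ± 0.213, adjusted p = 1.11e-06), and HAM3 had 40.6 and 39.9 in GMUCT and 6.11 and 10.3 in capture (2.39 ± 0.271, adjusted p = 4.35e-06). No group overlapped, and the 3 calls held under each alternative. TOE2, an AP2-type repressor of flowering and target of miR172, had 242 and 210 CPM in GMUCT and 17.9 and 24.3 in capture (3.46 ± 0.230, adjusted p = 4.47e-08). Its fold was the largest of a microRNA target among those with counts in all 4 libraries.

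Of 5 auxin response factors that are targets of miR160 or miR167, 2 were higher and 1 lower, while ARF17 (-0.07) and ARF8 (-0.09) did not pass. ARF10 had 102 and 117 CPM in GMUCT and 16.8 and 19.2 in capture (2.62 ± 0.216, adjusted p = 2.40e-07), and ARF16 had 40.7 and 49.2 in GMUCT and 19.8 and 15.5 in capture (1.31 ± 0.226, adjusted p = 1.87e-04). ARF6, a target of miR167, had 89.0 and 94.9 CPM in GMUCT and 146 and 198 in capture and was lower (-0.89 ± 0.194, adjusted p = 0.00121). The class III homeodomain-leucine zipper genes, which set the upper side of organs and are cut by the miR166 family, divided as well. PHV (1.63) and PHB (1.37) were higher, and HB-8 (-1.23), ATHB-15 (-0.90) and REV (-0.57) lower, the REV call not passing without GMUCT replicate 1 (-0.39, adjusted p = 0.148).

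MYB33, a miR159 target, had 35.1 and 41.2 CPM in GMUCT and 10.7 and 3.68 in capture (2.24 ± 0.310, adjusted p = 2.64e-05). MYB81, of the same family, stood opposite at very low levels, with 0.147 and 0.110 CPM in GMUCT and 2.29 and 2.95 in capture (-4.17 ± 0.821, adjusted p = 5.64e-04), the lowest value of any microRNA target tested. Of 9 tested targets of miR159 and miR319, 5 were higher and 2 lower. Of the miR319 targets, TCP4 (0.93) and TCP2 (0.94) were higher and TCP3 (-0.91) lower. The auxin receptor AFB3, cut by miR393, was higher with 205 and 242 CPM in GMUCT against 84.7 and 74.4 in capture (1.48 ± 0.194, adjusted p = 1.66e-05), whereas GRH1 of the same family had 29.4 and 34.6 in GMUCT and 65.3 and 82.5 in capture and was lower (-1.19 ± 0.194, adjusted p = 1.13e-04). The sulfate transporter SULTR2;1 (2.37) and the phosphate regulator PHO2 (1.39) were higher, and the ATP sulfurylases APS3 (-2.12) and APS4 (-1.13) lower, the APS4 call not passing without capture replicate 1.

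Targets of miR156 leaned to the other side, with 2 of 9 SPL genes higher and 5 lower (3 lower without GMUCT replicate 1, and 3 without capture replicate 1). SPL9, which times the change to the adult phase, had 31.1 and 36.7 CPM in GMUCT and 67.9 and 85.5 in capture (-1.16 ± 0.193, adjusted p = 1.31e-04). SPL4 (-1.42) was lower and SPL3 (1.07) higher, the SPL3 call not passing without capture replicate 1, and the spans of all 3 overlap a neighbour in the annotation used. In the nuclear factor Y family, cut by miR169, NF-YA3 (1.78) was higher, and NF-YA1 (-1.56) and NF-YA9 (-1.92) lower. Of 3 targets of trans-acting siRNAs made from TAS3, 0 were higher and 2 lower (1 lower under 5 alternatives, among them leaving out GMUCT replicate 2 or either capture library). ARF4 had 21.5 and 27.0 CPM in GMUCT and 53.4 and 70.0 in capture (-1.33 ± 0.206, adjusted p = 7.45e-05). The 7 TAS loci themselves are outside the compared genes, as are most microRNA genes.

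**Figure D4:**
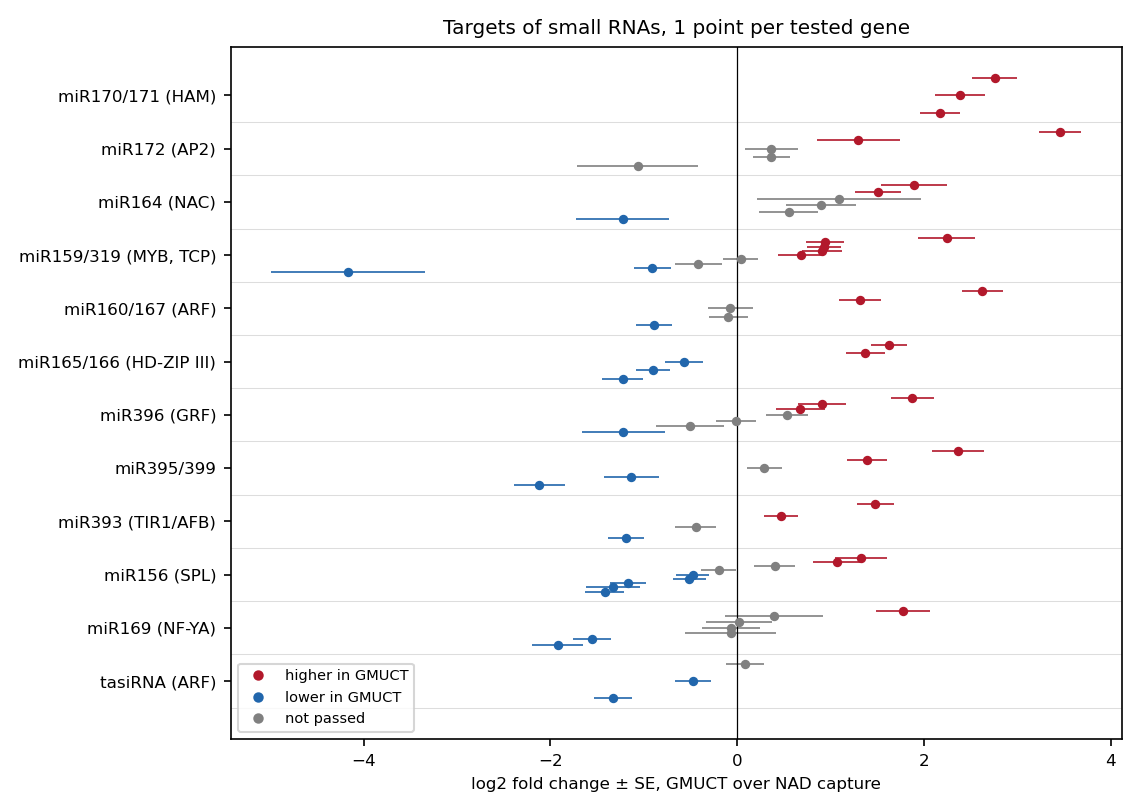
Log2 fold change, GMUCT over NAD capture, with its SE, 1 point per tested gene, for 11 families of microRNA targets and the targets of trans-acting siRNAs. Red and blue points passed the test and grey points did not. The 3 HAM genes lie between 2.17 and 2.76, and most other families hold genes on both sides of 0.

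Pentatricopeptide repeat (PPR) genes that are known sources of phased secondary siRNAs leaned to the GMUCT side, with 9 of 13 tested genes higher and 0 lower, against 29.5 and 27.9% of all genes, and a median of 1.51. The other 4 did not pass, the lowest of them at -0.43, and without GMUCT replicate 1 the count was 9 higher and 0 lower of 11. AT1G63150 had 24.99 and 27.8 CPM in GMUCT and 2.29 and 5.16 in capture (2.99 ± 0.354, adjusted p = 6.50e-06). AT1G63080 had 16.3 and 23.4 CPM in GMUCT and 4.58 and 4.42 in capture (2.13 ± 0.351, adjusted p = 1.29e-04). The groups did not overlap, but the counts behind the capture values are low, and these genes lie in a cluster of similar copies. Among them RPF1 (1.61), RPF2 (0.81) and RPF3 (1.43), which process mitochondrial transcripts, were higher. Without capture replicate 1, 6 of 13 were higher, and thinned to the depth of the shallowest library, 5 of 6 tested.

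Small RNA libraries of the same mutant give another readout that the choice of genes did not use. Of the tested genes, 432 had at least 100 small RNA counts of 21 and 22 nt over both dxo1 small RNA libraries, with at least 20 on the rarer strand. Of these, 38.7% were higher in GMUCT and 23.4% lower, with a median of 0.24, against 29.5% higher, 27.9% lower and a median of 0.02 over all tested genes. With the requirement at 20 and 5, 2360 genes gave 35.7% higher and 27.2% lower, the second near the share of all genes. These limits were chosen after the values were seen, replicate 1 holds 3625112 of the small RNA counts and replicate 2 137603, and no test was made.

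Genes that act in RNA decay lay on both sides. Of 19 tested genes of 5′-3′ decay, 8 were higher and 4 lower, with a median of 0.32 that fell to 0.06 with library totals alone (8 and 4 without GMUCT replicate 1). The near-identical partners of the LSM ring, which binds oligoadenylated RNA before decapping, lay on opposite sides: LSM3A had 381 and 384 CPM in GMUCT and 42.0 and 42.7 in capture (3.18 ± 0.205, adjusted p = 3.71e-08), and LSM3B had 27.6 and 21.6 in GMUCT and 80.5 and 84.8 in capture (-1.74 ± 0.192, adjusted p = 3.36e-06). The decapping enzyme DCP2 had 86.2 and 81.0 CPM in GMUCT and 21.8 and 26.5 in capture (1.82 ± 0.205, adjusted p = 4.13e-06). The nuclear exonuclease XRN3 (-1.30) was lower. Among exosome and nonsense-mediated decay factors, 4 of 12 were higher and 3 lower, near the 29.5 and 27.9% of all genes. The nuclear exosome helicase HEN2 (1.27) and UPF3 (1.09) were higher and LBA1, the UPF1 helicase gene, lower (-1.28).

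In the small RNA pathway, 10 of 29 genes were higher and 4 lower (9 and 4 without GMUCT replicate 1, 7 and 2 without capture replicate 1, and 7 and 8 with library totals alone), and the median of 0.23 turned to -0.03 under that scaling. As shares the main counts were 34.5% higher and 13.8% lower, against 29.5 and 27.9% of all genes. SDE3, an RNA helicase of silencing, had 275 and 212 CPM in GMUCT and 40.8 and 46.4 in capture (2.49 ± 0.215, adjusted p = 3.74e-07). HYL1, which helps DCL1 cut microRNA precursors, had 24.7 and 23.0 CPM in GMUCT and 7.63 and 7.37 in capture (1.66 ± 0.275, adjusted p = 1.29e-04). AGO1, itself a target of miR168, had 257 and 297 CPM in GMUCT and 147 and 173 in capture (0.79 ± 0.191, adjusted p = 0.00252). AGO5 (-1.04) and RDR1 (-0.96) were lower.

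Genes of salicylic acid and defence had 12 of 28 tested members higher and 4 lower, with a median of 0.69. As shares these were 42.9 and 14.3%, against 29.5 and 27.9% of all genes. EDS16, the isochorismate synthase of salicylic acid synthesis, had 116 and 102 CPM in GMUCT and 15.6 and 15.5 in capture (2.80 ± 0.217, adjusted p = 1.49e-07). The immune receptor SNC1 had 219 and 204 CPM in GMUCT and 76.3 and 89.2 in capture (1.36 ± 0.190, adjusted p = 2.86e-05). For these 2 genes the libraries of an assay were close, but the list as a whole leaned on single libraries. It had 7 higher and 6 lower without GMUCT replicate 1, with a median of 0.10, 5 higher and 1 lower without capture replicate 1, and 7 higher and 1 lower without capture replicate 2. WAK1, a wall-associated kinase called higher, had 150 and 83.3 CPM in GMUCT. PR5, a pathogenesis-related protein, had 12.2 and 3.75, and SARD1, a regulator of salicylic acid synthesis, 15.6 and 5.46. Both PR5 and SARD1 were called lower than in capture. GMUCT replicate 1 was the higher GMUCT library for each of these genes. DXO1 is high in the same library, and its part in these values was not tested.

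Floral identity genes, the markers of the labelled tissue, were measured in every library. AP1 had 331 and 320 CPM in GMUCT and 181 and 181 in capture (0.85 ± 0.183, adjusted p = 0.00116), and SEP3 had 96.7 and 117 in GMUCT and 345 and 350 in capture (-1.70 ± 0.190, adjusted p = 3.78e-06). Of 17 tested, 3 were higher and 8 lower (2 and 8 of 16 without GMUCT replicate 1, and 1 higher with library totals alone or without capture replicate 2). The B-class partners AP3 (0.64) and PI (-1.38), whose proteins work as a pair, lay on opposite sides, though the AP3 call did not pass under 4 of the 14 alternatives. LFY, which starts the floral programme, had 0.733 and 0.717 CPM in GMUCT and 10.3 and 6.63 in capture (-3.58 ± 0.471, adjusted p = 1.71e-05).

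The log2 ratio of polyA RNA over total RNA in dxo1 was taken beside it, since GMUCT as usually done starts from polyA RNA. The labels give total RNA as the molecule of both the GMUCT and the NAD capture libraries, so dividing GMUCT by polyA RNA follows the usual method and not the label. With total RNA as the divisor of both assays, the difference is the fold of GMUCT over capture already given. Across 19348 genes the 2 log2 ratios, which share no library, correlated at r = 0.084 (rho 0.049). The source-adjusted difference, GMUCT over polyA RNA minus NAD capture over total RNA on the log2 scale, was positive for 4584 (23.4%) and negative for 4446 (22.7%) of 19562 genes in edgeR's test of 8 libraries, 46.2% in either direction, and at least 8-fold for 309 (1.58%) and 579 (2.96%). With library totals alone the split was 3142 positive and 6092 negative, with upper-quartile scaling 3499 and 5645. Without the GMUCT, polyA RNA and total RNA libraries numbered 1, a setting chosen after seeing the data, the counts were 3973 and 3887. Late pollen and sperm genes had 8 negative and 0 positive of 14, tapetum and pollen wall genes 12 and 1 of 25, and the PPR genes 0 and 8 of 12. The 3 HAM genes were positive. Histone genes turned to the negative side, with 9 negative and 4 positive of 20 and a median of -0.73. Their median log2 ratio of polyA over total RNA was 0.70. Antenna genes had 17 negative and 0 positive of 20 and photosystem subunits 20 negative and 2 positive of 33, since their polyA over total ratio was above 0 while their GMUCT over capture ratio was below it.

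The genes at the ends differed in how far polyA and total RNA entered the value. AT-IE, of histidine synthesis, had 97.0 and 99.4 CPM in GMUCT and 215 and 147 in capture, below it, but 36.2 and 38.2 in polyA RNA against 3279 and 3914 in total RNA, which gave the largest positive source-adjusted difference among passing genes with a symbol and above the median level (5.69 ± 0.282, adjusted p = 2.39e-07). Its annotated span overlaps 4 other genes. By contrast UGT78D3 had 28.3 and 36.3 CPM in polyA RNA and 32.6 and 47.2 in total RNA, and kept its difference (4.98 ± 0.340, adjusted p = 1.21e-06). On the negative side, among genes chosen by the same rule, FSD1 (-5.78), the germin-like GER3 (-5.19), PSBW (-5.01), PSAL (-4.97) and the arabinogalactan protein AGP1 (-4.92) were the 5 largest. The pollen genes AGP23 (-6.40) and AGP40 (-5.94) lay further out at lower levels. The clock gene LHY had 30.0 and 34.7 CPM in GMUCT and 11.8 and 13.3 in capture, while total RNA held 352 and 412 against 75.2 and 75.8 in polyA RNA (source-adjusted 3.71 ± 0.257, adjusted p = 1.28e-06).

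**Figure D5:**
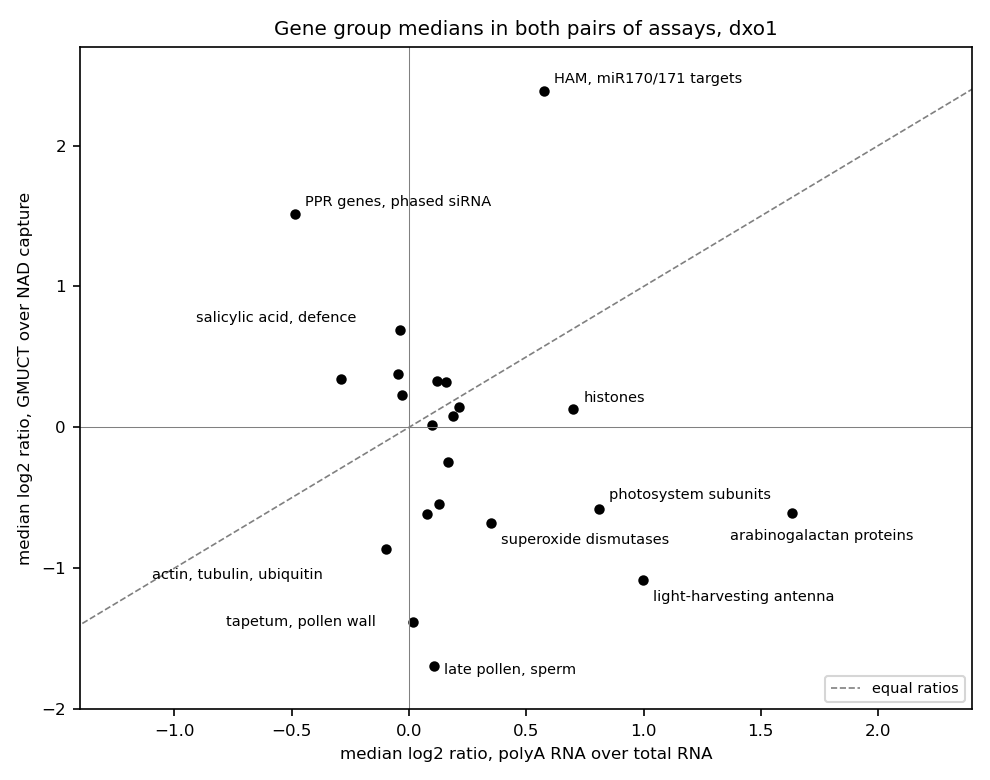
Median log2 ratio of GMUCT over NAD capture (vertical axis) and of polyA RNA over total RNA (horizontal axis) for 22 gene groups, 1 point per group, with a dashed line of equal ratios. Antenna, photosystem and arabinogalactan groups lie right of 0 and below it, the PPR genes left and above, and both pollen groups below 0 with polyA over total medians of 0.11 and 0.02.

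The span of a gene in the annotation had a weak relation to the difference (rho 0.077 over 19563 genes). The tenth of shortest genes, up to 1211 bases, had a median log2 fold change of -0.30, with 22.5% higher and 34.6% lower, and the tenth of longest genes 0.13, with 32.3% higher and 21.9% lower.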

How the data were processed

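Gene counts came from strand-specific 50 nt reads, per the labels. The authors' deposited tables hold raw counts per gene. Per the submitters' processing notes, cutadapt, STAR 2.4.2a, HTSeq and the build TAIR10 were used, and settings are not given in the sources used here. The deposited small RNA tables hold counts per transcript model, strand and length. Of the 27206 genes, 26719 matched the RefSeq annotation of TAIR10.1, used for symbols, gene types and spans only. Special HTSeq entries were left out (shares in the report). After filterByExpr (minimum count 10) and TMM scaling, genes were tested by quasi-likelihood F tests in edgeR 4.0.16 in R 4.3.3, with Benjamini-Hochberg adjustment over all genes tested and a threshold of 0.05. The 4 libraries leave 2 residual degrees of freedom, and the 8 of the source-adjusted fit 4. In the fit of 4 libraries, edgeR added 12.5 prior degrees of freedom from a spread estimated over all genes. Its p-values thus rest mostly on that shared spread. The tests are two-sided. DESeq2 1.42.0 was an alternative. SE was taken as the size of the log2 fold change divided by the root of F. Replicate libraries were checked for duplication, and differed beyond sampling noise (chi-square per degree of freedom 28.6 in GMUCT and 2.60 in capture).

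The compared genes and the gene lists were chosen with earlier results of these data known. Genes named are DXO1, RDR6 and XRN4, the 10 largest differences each way among passing protein-coding genes with a symbol, above the median level and with groups that do not overlap, up to 3 passing genes of lowest p per list and direction, and the 5 largest source-adjusted differences each way. Other list members are named to show the range, chosen after their values were seen. On simulated data, 84% of 50 genes changed 2-fold and all changed 4-fold or more were found in GMUCT over capture, over 19403 genes, and 44% at 2-fold in the source-adjusted comparison, over 19245 genes. The changed genes were drawn only from those above the median level. The simulated spread followed its trend over level, without a spread particular to each gene. These rates therefore do not cover genes of low level or of unusual spread. Overlaps are noted beside some genes only: 61 of 202 named genes overlap another annotated gene, and the strand setting of the counting is not stated in the labels or notes. Among those without a note beside them are AFB3, GRH1, GAMMA-H2AX, LSM3B and DRL1.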

Additional observations from a re-analysis of the deposited data

Results flagged for a closer look

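Genes that the GMUCT tables do not list gave counts in NAD capture and were compared with total RNA of the same mutant as a share of all nuclear counts. The 623 transfer RNA genes held 0.250 and 0.0582% of capture counts (mean 0.154%), against 0.0053 and 0.00346% of total RNA counts. The 177 microRNA genes held 0.0157 and 0.0189% (mean 0.0173%), against 0.00759 and 0.00971%. The 221 long noncoding RNA genes held 0.151 and 0.127% (mean 0.139%), against 0.109 and 0.104%. For these 3 types both capture libraries lay above both total RNA libraries. Other types went the opposite way, with both capture libraries below: other noncoding RNA averaged 1.15% in capture and 4.11% in total RNA, small nuclear RNA 0.116 and 0.645%, antisense RNA 0.00179 and 0.00700%, and all types together 10.98 and 14.4%. The pair of capture libraries differed more from each other for transfer RNA than for the other types. These shares were not tested, and most reads of either kind matched several places and were not counted.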

How the results depend on the processing

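The counts of genes higher and lower in GMUCT stayed within 1.5 times of 5771 and 5459 under each alternative run, except that 3617 genes were lower without NAD capture replicate 1. Leaving out 1 library at a time gave 4308 to 5562 higher and 3617 to 5110 lower genes, and 3590 to 4405 positive and 3364 to 4120 negative source-adjusted differences. DESeq2 called 4813 higher and 4683 lower. No filter on low counts gave 6180 and 5101, a minimum count of 50 gave 5391 and 5237, and libraries thinned to the lowest total gave 4257 and 4271 of 15405. The replicate block gave 6008 and 5700, and 4931 and 4917 in the source-adjusted fit. GMUCT and capture libraries share only a number: their differences of replicate 1 minus 2 in log2 CPM correlated at r = 0.031 over 19562 genes. Among the libraries of the source-adjusted fit, the same replicate differences correlated at 0.556 between GMUCT and polyA RNA. They correlated at 0.157 both between GMUCT and total RNA and between polyA and total RNA. For capture the values were 0.040 with polyA and 0.039 with total RNA. The DXO1 (AT4G17620) fold was the 1 named value past the threshold that reversed, lying between -0.43 and 5.93 as GMUCT libraries were left out. The values of RDR6 (-0.15 to 0.30) and XRN4 (-0.30 to 0.16), which did not pass, lay on both sides of 0. Of 198 named genes that passed, 164 passed under each alternative in which they could be tested, 8 to 14 of them for a gene, and 34 failed under at least 1. The alternative without ribosomal RNA genes was not run, as 0 of them are among the compared genes. Depth limits the low genes: 3 counts over the group are 0.066 CPM in GMUCT and 0.754 CPM in capture, for counting error only.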

Other observations

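Other groups held genes on both sides. Of 30 tested genes of abscisic acid and abiotic stress, 8 were higher in GMUCT and 7 lower, near the 29.5 and 27.9% of all genes. The dehydrin ERD10 had 1043 and 762 CPM in GMUCT and 242 and 269 in NAD capture (log2 fold change 1.82 ± 0.213, adjusted p = 5.68e-06, edgeR), whereas RD22, an abscisic acid response gene, had 177 and 181 in GMUCT and 739 and 824 in capture (-2.13 ± 0.193, adjusted p = 5.62e-07). Of 15 heat shock genes, 7 were higher and 3 lower. The chaperone gene HSP81-2, of the HSP90 family, had 904 and 944 CPM in GMUCT and 290 and 391 in capture (1.44 ± 0.207, adjusted p = 3.59e-05), and HSC70-1, of the HSP70 family, had 728 and 755 in GMUCT and 1757 and 2071 in capture (-1.37 ± 0.197, adjusted p = 3.82e-05). Of 16 clock genes, 3 were higher, among them the morning genes LHY (1.38) and CCA1 (0.98), and 8 lower, among them FKF1 (-2.29) and PRR5 (-1.59). Without GMUCT replicate 1, 5 clock genes were higher.

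Genes of NAD metabolism, which supply or break down the cofactor of the cap, had 6 of 20 tested members higher (30%) and 4 lower (20%). Their median was 0.02. Over all genes 29.5% were higher and 27.9% lower, with a median of 0.02, so the group lay near the background. The NAD-cleaving Nudix enzyme gene NUDX19 had 64.9 and 84.4 CPM in GMUCT and 33.6 and 34.6 in capture (1.13 ± 0.207, adjusted p = 3.04e-04), and QS, the quinolinate synthase, had 7.18 and 5.57 in GMUCT and 16.8 and 17.0 in capture (-1.39 ± 0.290, adjusted p = 8.65e-04). Lower calls numbered 2 without either capture library and 7 with library totals alone. Of 14 transcripts reported as sensitive to nonsense-mediated decay, 4 were higher (28.6%), led by TFIIIA (2.44). Another 5 were lower (35.7%), led by the glycine-rich RNA-binding protein gene CCR1 (-2.24). Arabinogalactan proteins had 7 of 25 higher (28%, near the share of all genes), such as AGP9 (2.23), and 12 lower (48%), such as AGP12 (-3.64). In translation, 3 of 17 were higher and 8 lower, with the poly(A)-binding genes PAB4 (0.72) and PAB5 (-2.54) on opposite sides, the PAB4 call not passing under 5 of the 14 alternatives and the higher count lying at 1 without capture replicate 1.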
